A study of Homo sapiens with 8 samples.

Results

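Cancer-testis antigens are proteins whose genes are normally active in germ cells and placenta and silent in other adult tissues, and which many melanomas switch on again. RNA levels of 10 such gene families and of PRAME were described here in the human melanoma lines C8161 and A2058, both established cell lines. Members were the table's protein-coding genes with a symbol of the MAGEA, MAGEB, MAGEC, GAGE, SSX, XAGE, PAGE, CTAG, CSAG or BAGE families, or PRAME. This gave 55 of the 18478 genes listed. The name pattern also takes in SSX2IP, which encodes a centrosome and adherens junction protein that binds SSX2 and is itself no cancer-testis antigen. SSX2IP was kept out of the family sums, which cover 54 genes. Of the 55, 52 lie on chromosome X; the others are PRAME on chromosome 22, BAGE5 on chromosome 13 and SSX2IP on chromosome 1.

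The 4 groups were C8161 with retrovirally introduced ATF3, C8161 with a neomycin control, A2058 with retrovirally introduced ATF3 and A2058 with a neomycin control. The protein made from ATF3, activating transcription factor 3, belongs to the ATF/CREB family and is induced by stress. The medium was the same throughout, DMEM with 10% fetal bovine serum and antibiotics. The labels name 3 libraries per C8161 arm and 1 per A2058 arm, 8 in all, and do not say whether transduced cells were clones or pools or whether the C8161 libraries came from separate cultures. The promoter that drives the introduced gene is not given in the sources used here.

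Levels are given in RPKM, a read count scaled by transcript length and sequencing depth. The 2 A2058 columns hold a library each, and each of the 2 C8161 columns combines the libraries of its arm. No group has a spread between samples, so no test was run and each difference below describes these columns alone. ATF3 was at 62.6 RPKM in C8161 with ATF3 against 4.76 RPKM in its control, and at 4.71 RPKM in A2058 with ATF3 against 1.22 RPKM in its control. The spacing of small values in A2058 places the depth of its columns near 18000000 reads, so that a single read over 1 kb gives 0.0559 RPKM with ATF3 and 0.0542 RPKM in the control. The depth of the combined C8161 columns is unknown. Of the melanocytic markers MITF, MLANA, PMEL, TYR, TYRP1, DCT, SOX10 and S100B, 8 of 8 were at least 4-fold lower in C8161 than in A2058 on the log2(RPKM + 1) scale. Their summed level was 1.74 RPKM in C8161 with ATF3 and 1.60 RPKM in the C8161 control, against 1547 RPKM in A2058 with ATF3 and 1510 RPKM in the A2058 control. The defining markers of the labelled cell type were therefore near 0 in C8161. The 6 germ cell markers measured, DDX4, MAEL, STRA8, SYCP3, TEX14 and TEX101, were under 1 RPKM in the 4 columns. Of 3 keratinocyte markers SFN alone reached 1 RPKM, at 152 RPKM in C8161 with ATF3 and 146 RPKM in its control, against 1.48 RPKM in A2058 with ATF3 and 0.71 RPKM in its control. Of 4 endothelial markers CDH5 alone did, at 18.1 RPKM in C8161 with ATF3 and 8.86 RPKM in its control, against 0.05 RPKM in A2058 with ATF3 and 0.04 RPKM in its control. The 5 fibroblast markers summed to 0.75 RPKM in C8161 with ATF3 and 0.74 RPKM in its control, against 13.5 RPKM in A2058 with ATF3 and 12.2 RPKM in its control, and the 3 leukocyte markers to 0.96 RPKM in C8161 with ATF3 and 1.26 RPKM in its control, against 2.58 RPKM in A2058 with ATF3 and 2 RPKM in its control.

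In somatic cells the promoters of cancer-testis genes are held silent by DNA methylation, and loss of that methylation is the best known route to their expression in tumours. Many of the families arose by recent duplication on chromosome X, so that their copies are nearly the same in sequence. MAGE proteins bind and direct E3 ubiquitin ligases, SSX proteins are chromatin-associated repressors known from the SS18-SSX fusions of synovial sarcoma, and PRAME is a leucine-rich repeat protein that acts as a substrate receptor of a cullin 2 ubiquitin ligase and represses retinoic acid receptor signalling. GAGE, PAGE and XAGE proteins are small, acidic and related to each other. The CTAG genes encode NY-ESO-1 and LAGE-1, targets of T cell therapy.

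The sequences of the copies bear on every value below, because reads that match several copies have to be divided among them. The following stretches of 90 coding bases, from GENCODE 29 transcripts, are those with the most differences between the copies shown. Capitals mark the positions at which copies differ. MAGEA3 and MAGEA6 differ at 18 of 942 coding positions, and bases 434 to 523 of the coding sequence hold 4 of these.
MAGEA3: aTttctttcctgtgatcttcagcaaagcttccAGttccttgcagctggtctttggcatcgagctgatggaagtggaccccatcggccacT
MAGEA6: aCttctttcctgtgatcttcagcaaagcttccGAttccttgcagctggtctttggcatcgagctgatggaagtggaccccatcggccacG
The coding sequences of GAGE12D, GAGE12G and GAGE12H, each of 351 bases, differ at 2 positions in all, both within bases 83 to 172.
GAGE12D: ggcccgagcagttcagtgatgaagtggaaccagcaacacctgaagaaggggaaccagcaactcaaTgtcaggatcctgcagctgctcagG
GAGE12G: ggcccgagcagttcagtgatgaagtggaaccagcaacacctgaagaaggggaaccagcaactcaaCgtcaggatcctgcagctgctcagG
GAGE12H: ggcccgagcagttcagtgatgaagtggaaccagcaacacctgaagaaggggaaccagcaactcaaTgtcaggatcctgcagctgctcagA
GAGE12F and GAGE12G had the same coding sequence in these transcripts, as had MAGEA2 and MAGEA2B, MAGEA9 and MAGEA9B, SSX2 and SSX2B, and XAGE1A and XAGE1B. CSAG2 and CSAG3 differed at 1 of 381 coding bases. Identity between coding sequences had a median of 97.4% over the 36 pairs of GAGE genes, against 77.9% over 66 MAGEA pairs and 64.1% over 15 MAGEB pairs. Of 54 members with a GENCODE transcript, 21 shared at least 50% of the 50-base stretches of their longest coding transcript with another gene. For GAGE1, whose longest transcript has 2873 bases, this share was 10.2%, although its coding sequence differs from that of GAGE12G by 3 edits. XAGE1A and XAGE1B are listed with identical values in the 4 columns. Whether these are separate measurements is not known, and the sums and counts below take in both. The gene with Entrez identifier 729428, called GAGE12B here after RefSeq, is named GAGE2E in GENCODE 29. Because of these copies, sums over a family or a pair are given beside the single genes.

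Most families were far higher in A2058 than in C8161, where all but MAGEB were near 0; CTAG and BAGE were low in A2058 as well. Summed over the 54 genes, the level was 2.30 RPKM in C8161 with ATF3 and 2.61 RPKM in the C8161 control, against 3940 RPKM in A2058 with ATF3 and 3741 RPKM in the A2058 control. This was 0.827% of all RPKM in A2058 with ATF3 and 0.795% in the A2058 control. In A2058, 36 of the 54 reached 1 RPKM in a column, 22 reached 20 RPKM and 8 reached 100 RPKM. In C8161 a single one, MAGEB17, reached 1 RPKM, 26 were listed at 0 in both columns and 27 lay between 0 and 1 RPKM, with 0.24 RPKM as the highest level.

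**Figure D1:**
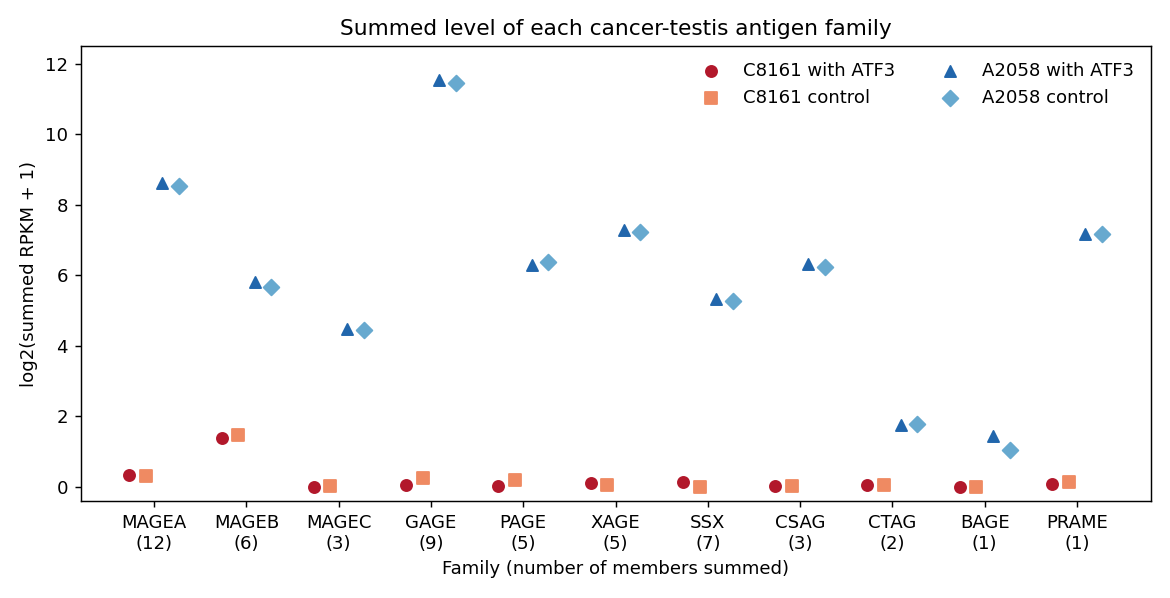
Summed level of each family, as log2(summed RPKM + 1), in the 4 columns of the table, with the number of members summed in brackets. The C8161 points lie near 0 except for MAGEB, and the A2058 points reach 2977 RPKM for GAGE; the points of 1 line lie close together in every family but BAGE.

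Every member that reached 20 RPKM in both A2058 columns, 22 genes, was under 0.5 RPKM in both C8161 columns. Of the 4050 other genes at that level in A2058, 93 were under 0.5 RPKM in C8161, 3 of them on chromosome X. Counting every member that reached 1 RPKM anywhere, 38 genes with SSX2IP, 25 were lower in C8161 by at least 4-fold on the log2(RPKM + 1) scale both with ATF3 and in the controls, and 0 were higher. Over all genes at that minimum, 6.74% were lower by this rule and 3.07% were higher, and among chromosome X genes that are no members 7.73% were lower and 2.74% higher. Of the 18 members that share less than 50% of their transcript with another gene, 11 were lower, where 6.61% of all such genes were lower and 3.21% higher. The median difference in the controls, C8161 minus A2058, was −4.82 for the 38 members, −4.54 for the 18 that share less than 50% and −0.19 over all genes. Of the 13 members that did not pass, 12 were under 3 RPKM in at least 1 A2058 column, a level from which C8161 cannot be 4-fold lower on this scale, and the other was SSX2IP. The melanocytic markers were lower in the same columns, and their part in this difference was not tested. These columns describe 1 culture or set of cultures per line, and a smaller share of expressing cells cannot be told apart from less RNA per cell.

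**Figure D2:**
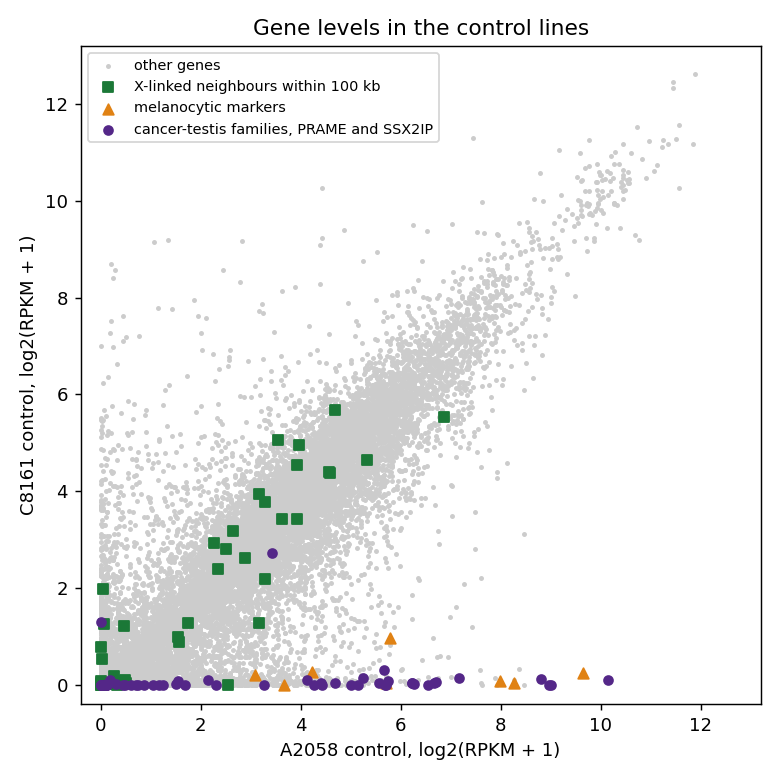
Level of each gene in the C8161 control against the A2058 control, both as log2(RPKM + 1), with family members, chromosome X neighbours and melanocytic markers marked. The members lie along the A2058 axis, as do the melanocytic markers, while most neighbours lie on the diagonal with the other genes.

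The GAGE family held 75.6% of the members' summed RPKM in A2058 with ATF3 and 75.1% in the A2058 control. Its sum over 9 genes was 0.05 RPKM in C8161 with ATF3 and 0.20 RPKM in the C8161 control, against 2977 RPKM in A2058 with ATF3 and 2809 RPKM in the A2058 control. GAGE12B was at 0.04 RPKM in C8161 with ATF3 and 0.07 RPKM in the C8161 control, against 1221 RPKM in A2058 with ATF3 and 1128 RPKM in the A2058 control, where it ranked 44th and 49th of all genes. The value listed for GAGE12B was alone above the sum of any other family in A2058. Its transcript has 403 bases, and every stretch of it that was compared also occurs in another gene. The value can therefore not be assigned to this copy alone. GAGE12G was listed at 0 in both C8161 columns and at 551 RPKM in A2058 with ATF3 against 515 RPKM in the A2058 control. GAGE12J was likewise at 0 in C8161 and at 507 RPKM with ATF3 against 503 RPKM in the control of A2058. GAGE2A was at 0 RPKM in C8161 with ATF3 and 0.09 RPKM in its control, and at 486 RPKM in A2058 with ATF3 against 446 RPKM in its control. These 4 copies made up most of the family sum. GAGE12D and GAGE12F, at lower levels, were listed at 0 in both C8161 columns and are given below with the ATF3 comparison. GAGE1 was at 102 RPKM with ATF3 against 103 RPKM in the control of A2058, and at 0.01 RPKM in C8161 with ATF3 and 0.04 RPKM in its control. GAGE12H was listed at 0 in both C8161 columns and was at 100.4 RPKM in A2058 with ATF3 against 92.8 RPKM in its control.

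The MAGEA family, type I MAGE genes mostly of Xq28, summed over 12 genes to 0.27 RPKM in C8161 with ATF3 and 0.24 RPKM in the C8161 control, against 388 RPKM in A2058 with ATF3 and 371 RPKM in the A2058 control. MAGEA3 and MAGEA6, whose proteins bind the ligase TRIM28, were the highest. MAGEA3 was at 0 RPKM in C8161 with ATF3 and 0.02 RPKM in its control, and at 105 RPKM in A2058 with ATF3 against 101 RPKM in its control. MAGEA6 was at 0 RPKM in C8161 with ATF3 and 0.01 RPKM in its control, and at 82.1 RPKM with ATF3 against 76.6 RPKM in the control of A2058. MAGEA12 was listed at 0 in both C8161 columns and was at 53.9 RPKM in A2058 with ATF3 against 50.9 RPKM in its control. MAGEA2B was at 0 RPKM in C8161 with ATF3 and 0.02 RPKM in its control, and at 49.7 RPKM in A2058 with ATF3 against 46.5 RPKM in its control. MAGEA2, with the same coding sequence as MAGEA2B, was at 9.18 RPKM in A2058 with ATF3 against 8.67 RPKM in its control and at 0 in C8161, and the sum of this pair was 58.9 RPKM in A2058 with ATF3 against 55.2 RPKM in its control. MAGEA1, the first of the family to be found as a T cell target, was listed at 0 in both C8161 columns and at 32.7 RPKM in A2058 with ATF3 against 31.2 RPKM in the A2058 control. MAGEA4, a target of engineered T cells, was at 0.04 RPKM in C8161 with ATF3 and 0.10 RPKM in its control, and at 34.3 RPKM in A2058 with ATF3 against 36.8 RPKM in its control. It was the only MAGEA gene at 1 RPKM or more in A2058 whose level was lower with ATF3. MAGEA10 was at 0.21 RPKM in C8161 with ATF3 against 0.07 RPKM in its control, and at 18.2 RPKM in A2058 with ATF3 against 16.4 RPKM in its control. MAGEA11, a coregulator of the androgen receptor, was at 0 RPKM in C8161 with ATF3 and 0.01 RPKM in its control, and at 2.32 RPKM with ATF3 against 1.84 RPKM in the control of A2058. MAGEA9B was at 1.10 RPKM in A2058 with ATF3 against 0.68 RPKM in its control while its twin MAGEA9 was at 0 RPKM in A2058 with ATF3 against 0.23 RPKM in its control, so that the pair summed to 1.10 RPKM in A2058 with ATF3 against 0.91 RPKM in its control. In C8161 MAGEA9B was listed at 0 in both columns.

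Of 6 MAGEB genes, MAGEB2 and MAGEB17 reached 1 RPKM. MAGEB2 was at 0.24 RPKM in both C8161 columns, the highest value there besides MAGEB17, and at 54.6 RPKM in A2058 with ATF3 against 49.9 RPKM in the A2058 control. MAGEB17 went the other way between the lines, at 1.27 RPKM in C8161 with ATF3 and 1.45 RPKM in the C8161 control, against 0.12 RPKM in A2058 with ATF3 and a listed 0 in the A2058 control. None of the 50-base stretches of its transcript occurs in another gene. It was the single family member with a higher level in the C8161 control than in the A2058 control among those that reached 1 RPKM, by a log2 difference of 1.29. MAGEC1, of the Xq27 cluster, was listed at 0 in both C8161 columns and at 21.2 RPKM in A2058 with ATF3 against 20.7 RPKM in the A2058 control.

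PRAME was at 0.07 RPKM in C8161 with ATF3 and 0.11 RPKM in the C8161 control, against 143.5 RPKM in A2058 with ATF3 and 143.1 RPKM in the A2058 control. The gene lies outside chromosome X, none of the 50-base stretches of its transcript occurs in another gene, and its log2 difference between the control lines, −7.02, was within the range of the X-linked families. Its log2 ratio was 0.00, and −0.02 after quantile normalization and −0.01 once trends with GC content and transcript length were removed, so no direction is given.

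Among the small acidic antigens, XAGE1A and XAGE1B were each at 0.04 RPKM in C8161 with ATF3 and 0.02 RPKM in the C8161 control, against 77.1 RPKM in A2058 with ATF3 and 73.9 RPKM in the A2058 control. XAGE3, a gene related to XAGE1 and known from placenta, was listed at 0 in C8161 and at 1.35 RPKM in A2058 with ATF3 against 0.64 RPKM in its control. PAGE5 was at 0.03 RPKM in C8161 with ATF3 and 0.06 RPKM in its control, and at 48.0 RPKM in A2058 with ATF3 against 52.6 RPKM in its control. PAGE1 was at 0 RPKM in C8161 with ATF3 and 0.03 RPKM in its control, and at 26.0 RPKM with ATF3 against 24.7 RPKM in the control of A2058. The near-identical PAGE2 and PAGE2B were low in both lines. PAGE2 was at 0 RPKM in C8161 with ATF3 and 0.07 RPKM in its control, and at 2.63 RPKM in A2058 with ATF3 against 3.45 RPKM in its control. PAGE2B was listed at 0 in C8161 and was at 0.63 RPKM in A2058 with ATF3 against 1.25 RPKM in its control.

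Of the SSX genes, SSX2B carried nearly all of the sum. It was at 0.02 RPKM in C8161 with ATF3 and at 0 in the C8161 control, against 36.8 RPKM in A2058 with ATF3 and 34.7 RPKM in the A2058 control, whereas SSX2, with the same coding sequence, was at 0.05 RPKM in A2058 with ATF3 against 0.40 RPKM in its control. SSX1, a partner in the synovial sarcoma fusions, was at 0.01 RPKM in C8161 with ATF3 and 0 RPKM in its control, and at 1.32 RPKM in A2058 with ATF3 against 0.82 RPKM in its control. SSX4B was listed at 0 in C8161 and was at 0.86 RPKM in A2058 with ATF3 against 1.39 RPKM in its control. SSX2IP behaved unlike the families, at 7.17 RPKM in C8161 with ATF3 and 5.63 RPKM in the C8161 control, against 9.62 RPKM in A2058 with ATF3 and 9.76 RPKM in the A2058 control. CSAG1, a gene of the MAGEA region of chromosome X, was at 0 in C8161 and at 51.2 RPKM in A2058 with ATF3 against 51 RPKM in its control. CSAG3 was at 0.02 RPKM in both C8161 columns and at 25.5 RPKM in A2058 with ATF3 against 20.1 RPKM in its control. CSAG2 was listed at 0 in C8161 and was at 1.81 RPKM in A2058 with ATF3 against 3.94 RPKM in its control, and the sum of these copies was 27.3 RPKM in A2058 with ATF3 against 24 RPKM in its control. CTAG1A, a copy of the NY-ESO-1 gene, stayed low in A2058 as well, at 1.58 RPKM with ATF3 against 1.92 RPKM in the control, and at 0.05 RPKM in both C8161 columns. BAGE5, which has no GENCODE transcript here, was at 1.72 RPKM in A2058 with ATF3 against 1.07 RPKM in its control and at 0 in C8161.

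**Figure D3:**
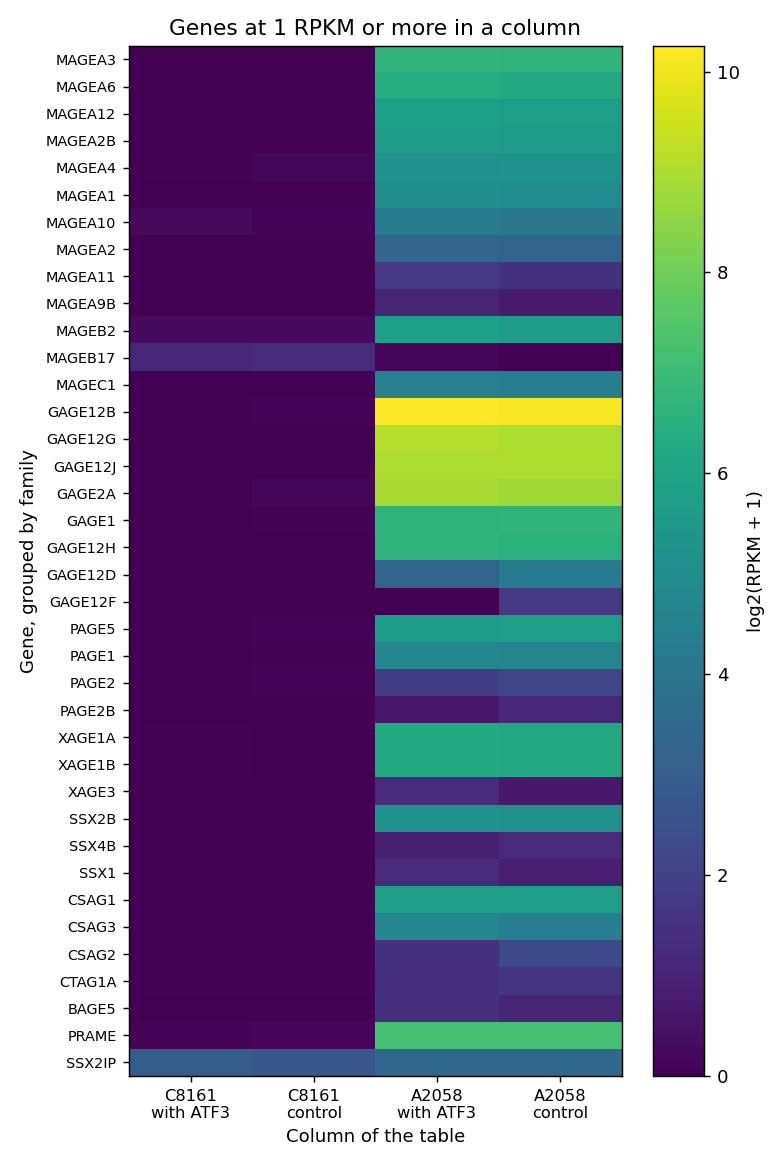
Level of the 38 genes that reached 1 RPKM in a column, as log2(RPKM + 1), in the 4 columns of the table, grouped by family and ordered by the A2058 control within a family. The C8161 columns are dark except for MAGEB17 and SSX2IP, and the A2058 columns differ most for GAGE12F, GAGE12D and CSAG2.

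The 17 other members were under 1 RPKM in every column, 0.90 RPKM at most. The highest of each family were GAGE10 (0.90 RPKM in A2058 with ATF3), CTAG2, which encodes LAGE-1 (0.78 RPKM in A2058 with ATF3), SSX2 (0.40 RPKM in the A2058 control), XAGE5 (0.36 RPKM in the A2058 control), MAGEC2 (0.28 RPKM in A2058 with ATF3), MAGEA9 (0.23 RPKM in the A2058 control), PAGE4 (0.22 RPKM in A2058 with ATF3) and MAGEB10 (0.15 RPKM in A2058 with ATF3). XAGE2 was the one member listed at 0 in the 4 columns. Activity in A2058 was thus uneven within families. MAGEC1 was at 21.2 RPKM with ATF3 where MAGEC2 was at 0.28 RPKM, and MAGEA3 at 105 RPKM where MAGEA8 was at 0.06 RPKM.

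The comparison with ATF3 asks whether the introduced factor went with a different level of these genes. In A2058, ATF3 itself was at 4.71 RPKM against 1.22 RPKM in the control, no higher than the 4.76 RPKM of the C8161 control. In A2058, 37 members reached 1 RPKM in a column, SSX2IP included. Of these, 1 was higher and 3 were lower by a log2(RPKM + 1) ratio of 0.5 or more, a fold of 1.41 on that scale. Over all 11883 genes compared, 0.21% were higher and 0.328% lower by this rule, and 0.539% passed in either direction. Among genes that share at least 50% of their transcript with another gene, 1.43% were higher and 2.86% lower, 4.29% together, and among genes that share less, 0.116% were higher and 0.134% lower, 0.25% together. The 3 lower members, GAGE12F, GAGE12D and CSAG2, are among the 19 members that share that much, while 1 of the 17 members that share less, XAGE3, passed as higher.

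GAGE12F was listed at 0 in A2058 with ATF3 and was at 2.24 RPKM in the A2058 control, about 24 reads. GAGE12D was at 8.51 RPKM in A2058 with ATF3, about 80 reads, against 18.3 RPKM in its control, about 178 reads. The log2 ratio was −1.02 for GAGE12D and −0.81 for CSAG2, whose values above correspond to about 27 reads with ATF3 against 61 reads in the control. XAGE3 rested on about 12 reads with ATF3 against 6 reads in the control. Its log2 ratio of 0.52 was 0.46 after quantile normalization and 0.49 after correction for GC content and length, so it passed 0.5 in neither. GAGE10, under the minimum level, differed in the other direction from GAGE12F, as it was listed at 0 in the A2058 control only and was at 0.90 RPKM in A2058 with ATF3. GAGE12F and CSAG2, each added to its twin, gave a pair level that was higher with ATF3. The pair of GAGE12F and GAGE12G was at 551 RPKM with ATF3 against 518 RPKM in the control, a log2 ratio of 0.09. That of CSAG2 and CSAG3 had a log2 ratio of 0.18. The twin, GAGE12G or CSAG3, held most of each pair level, so these ratios mainly follow the twin. They cannot show whether reads were divided differently between the copies. No pair was formed for GAGE12D. For families as a whole no sum passed 0.5 in either direction.

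**Figure D4:**
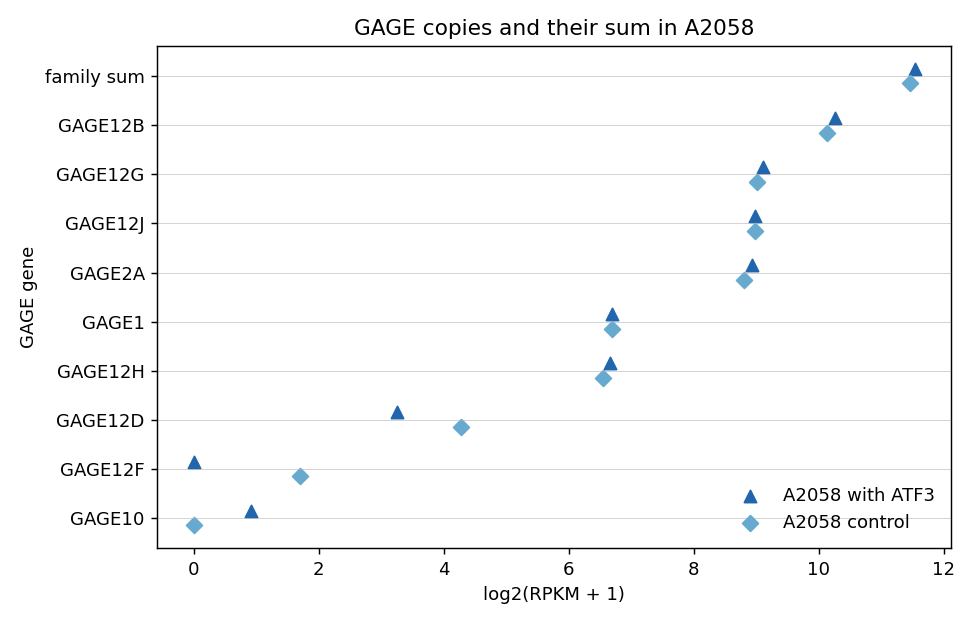
Level of each GAGE gene and of their sum in A2058, as log2(RPKM + 1), with ATF3 (triangles) and in the control (diamonds). The 6 copies above 90 RPKM and the sum of 2977 RPKM with ATF3 against 2809 RPKM in the control lie close together, while GAGE12D, GAGE12F and GAGE10 lie apart.

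The family sums in A2058 had small ratios, mostly above 0. The log2 ratio was 0.08 for GAGE, 0.07 for MAGEA, 0.13 for MAGEB, 0.04 for MAGEC, 0.06 for XAGE, 0.06 for SSX and 0.06 for CSAG, each of which kept its sign after quantile normalization and after correction for GC content and length. PAGE was at −0.08 and CTAG at −0.04, and both kept their sign under these settings. Over the members with under 50% shared sequence alone, the ratio was 0.00 for GAGE (GAGE1 and GAGE10), 0.37 for XAGE, 0.31 for SSX, 0.01 for CSAG, 0.22 for CTAG and 0.02 over all members, so the size of these ratios, and for CTAG the sign, depended on which copies were counted. That subset leaves out XAGE1A, XAGE1B, SSX2B and CTAG1A. Its XAGE, SSX and CTAG ratios rest on genes at 1.35 RPKM or less, with few reads. BAGE, which is BAGE5 alone, was at 0.39. The 22 members at 20 RPKM or more in both A2058 columns, which rest on about 303 reads or more each, had ratios from −0.13 (PAGE5) to 0.33 (CSAG3) with a median of 0.07, and 19 of the 22 were above 0. The 4072 genes at that level had a median of 0.01, with 2367 above 0 and their central 95% between −0.12 and 0.15. With correction for GC content and length the members' median was 0.04, with 16 of 22 above 0, and after quantile normalization it was 0.06, also with 16 of 22 above 0. Copies that share reads are not independent of each other, and 10 of the 22 share less than 50% of their transcript.

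**Figure D5:**
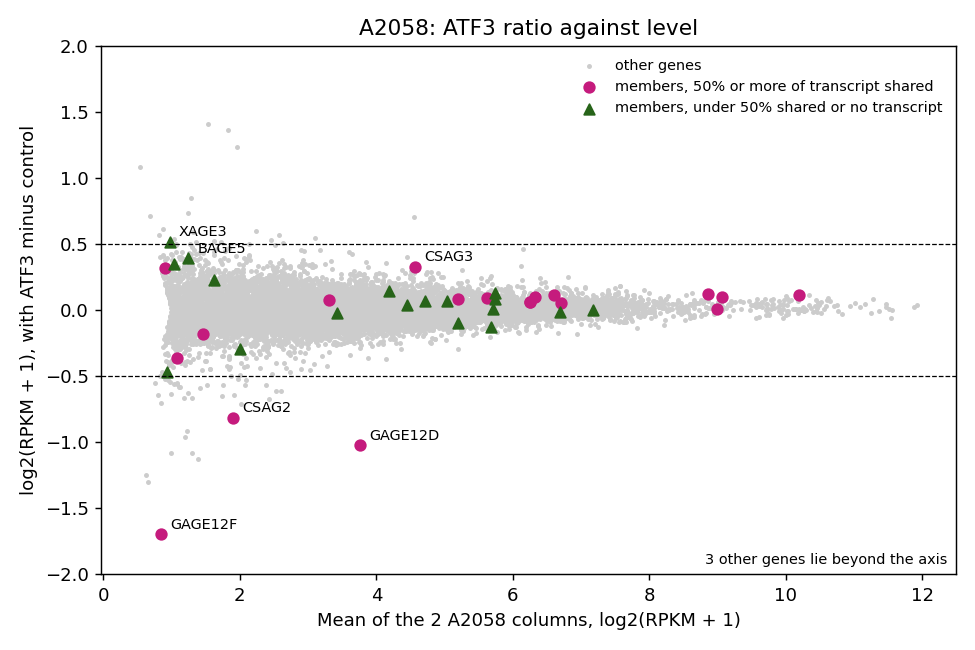
Difference of log2(RPKM + 1) between A2058 with ATF3 and its control, against the mean of the 2 columns, for genes at 1 RPKM or more in a column, with family members coloured by shared sequence and dashed lines at 0.5 and −0.5. Members at high levels lie close to 0 and GAGE12F, GAGE12D and CSAG2 lie below −0.5; 3 other genes lie beyond the axis.

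In C8161, with the larger difference in ATF3, the members had almost no level to compare. MAGEB17 and SSX2IP alone reached 1 RPKM, with log2 ratios of −0.11 and 0.30, and 0 of these 2 passed 0.5, where 0.183% of 10941 genes were higher and 0.0914% lower, 0.274% together. With ATF3, 34 of the 54 family members were listed at 0, against 32 of 54 in the C8161 control. Among the 54 family members, SSX2IP left out, the largest level with ATF3 that was above that of the control was 0.21 RPKM, for MAGEA10. The family sums were 0.27 RPKM with ATF3 against 0.24 RPKM in the control for MAGEA, 1.61 against 1.76 RPKM for MAGEB, 0.01 against 0.03 RPKM for MAGEC, 0.03 against 0.16 RPKM for PAGE, 0.08 against 0.04 RPKM for XAGE and 0.11 RPKM against a listed 0 for SSX. CSAG and CTAG were at 0.02 and 0.05 RPKM in both columns, and BAGE at 0 in both. With the depth unknown, differences of this size could not be set against counting error.

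Most expressed genes next to the members were present in both lines. Of 40 protein-coding genes of chromosome X within 100 kb of a member that are no members, 26 reached 1 RPKM in a column, 25 of them in C8161. On the log2(RPKM + 1) scale 1 of the 26 was lower in C8161 by at least 4-fold in both pairs, and 0 were higher. Over all chromosome X genes that are no members, 7.73% were lower and 2.74% higher. The counts thus do not set the neighbours apart from other genes of that chromosome. The examples that follow were chosen after their values were seen. NSDHL, an enzyme of cholesterol synthesis beside MAGEA6 and MAGEA12, was at 29.2 RPKM in C8161 with ATF3 and 30.2 RPKM in the C8161 control, against 15.2 RPKM in A2058 with ATF3 and 14.6 RPKM in the A2058 control. CETN2, which encodes centrin 2 and lies beside the same genes, was at 35.5 RPKM in C8161 with ATF3 and 32.2 RPKM in its control, against 11.6 RPKM in A2058 with ATF3 and 10.8 RPKM in its control. CCDC22, beside GAGE10 and GAGE12J, was at 10.4 RPKM in C8161 with ATF3 and 12.8 RPKM in its control, against 9.36 RPKM in A2058 with ATF3 and 8.76 RPKM in its control. The 1 neighbour lower in C8161 by at least 4-fold in both pairs was NR0B1, the orphan nuclear receptor DAX1, beside MAGEB2 and MAGEB3. It was listed at 0 in both C8161 columns and was at 3.85 RPKM in A2058 with ATF3 against 4.88 RPKM in the A2058 control. PPP1R3F, beside GAGE10 and GAGE12J, was lower in C8161 by 4-fold with ATF3 but not in the controls. Its level was 1 and 1.42 RPKM in C8161 with ATF3 and its control, against 7.01 and 7.98 RPKM in A2058. GABRQ, beside MAGEA3, was higher in C8161 by 4-fold with ATF3 but not in the controls. Its level was 3.18 and 2.94 RPKM in C8161 with ATF3 and its control, against 0.04 and 0.03 RPKM in A2058.

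What the members' promoters share was read from RefSeq windows of GRCh38.p14, which cover the 250 bases before the annotated start, 1 window for each of 46 family members matched. Promoters are shown for an X-linked family pair, the largest family, the member with most C8161 signal besides MAGEB17, and PRAME, with CpG dinucleotides, the sites of DNA methylation, in capitals. The MAGEA6 window is identical to that of MAGEA3, and those of GAGE12D, GAGE12F, GAGE12H and GAGE2A are identical to that of GAGE12J.
MAGEA3 (chrX:152698544-152698793, plus strand): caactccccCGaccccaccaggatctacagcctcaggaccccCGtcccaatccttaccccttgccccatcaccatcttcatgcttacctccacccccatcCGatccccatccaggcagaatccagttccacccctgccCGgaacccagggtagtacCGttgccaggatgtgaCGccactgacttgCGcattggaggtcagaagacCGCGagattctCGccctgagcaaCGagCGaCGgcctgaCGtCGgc
GAGE12J (chrX:49321787-49322036, plus strand): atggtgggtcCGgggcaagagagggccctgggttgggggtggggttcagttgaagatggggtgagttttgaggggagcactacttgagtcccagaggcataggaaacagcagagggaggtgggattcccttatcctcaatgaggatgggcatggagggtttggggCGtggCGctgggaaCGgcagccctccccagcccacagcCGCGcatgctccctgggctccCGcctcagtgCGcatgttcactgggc
MAGEB2 (chrX:30215313-30215562, plus strand): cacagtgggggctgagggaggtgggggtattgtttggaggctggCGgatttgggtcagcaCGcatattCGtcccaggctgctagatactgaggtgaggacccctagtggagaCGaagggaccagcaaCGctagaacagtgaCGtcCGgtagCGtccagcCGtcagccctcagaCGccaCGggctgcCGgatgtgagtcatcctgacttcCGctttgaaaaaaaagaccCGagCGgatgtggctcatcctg
PRAME (chr22:22559266-22559515, minus strand): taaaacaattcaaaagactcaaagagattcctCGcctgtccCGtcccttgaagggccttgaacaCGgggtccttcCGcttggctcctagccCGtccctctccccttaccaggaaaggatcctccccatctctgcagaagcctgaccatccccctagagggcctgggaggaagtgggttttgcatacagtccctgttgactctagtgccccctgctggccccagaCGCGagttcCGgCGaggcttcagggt
These windows hold 15 CpG (MAGEA3), 8 (GAGE12J), 15 (MAGEB2) and 9 (PRAME). Over the 46 members the median was 8 CpG, with a range from 1 to 18, against a median of 14 over 662 chromosome X genes that are no members and of 17 over 15843 protein-coding genes. Members at 20 RPKM or more in both A2058 columns had a median of 9 CpG over 21 windows, and the other members had a median of 7 over 25. GAGE12F and GAGE12J, at 0 and 507 RPKM in A2058 with ATF3, have the same window. In the A2058 control GAGE12F was at 2.24 RPKM. Its coding sequence is that of GAGE12G, so its level depends on how reads were divided between these copies. Whether the same window went with different activity was therefore not tested. Motifs were searched on both strands. The string CCGGAA, 1 form of the ETS core, was in 4 of the 46 windows, or 8.70%, against 19.2% of all protein-coding windows. MAGEA3 and PRAME were among the 4, as was MAGEA6, whose window is that of MAGEA3. Other forms, such as CCGGAT in the MAGEB2 window, were not searched, so this share does not cover all ETS sites. The GC box GGGCGG was in 21.7% of the members' windows against 55.8% of all, the cAMP response element TGACGTCA in 4.35% against 2.29% and the AP-1 site TGANTCA in 4.35% against 5%. The AP-1 match in the MAGEB2 window is a match of letters only. So are the 2 response element matches, which both come from the shared window of MAGEA9 and MAGEA9B. Identical windows, such as that one and those of the GAGE copies, were each counted in these shares and medians. DNA methylation was not analysed here.

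Genes that act around these families were described from lists. Of 46 other cancer-testis and germline genes listed, 19 reached 1 RPKM. On the log2(RPKM + 1) scale 5 of these were lower in C8161 by at least 4-fold in both pairs and 1 was higher. Over all genes 6.74% were lower and 3.07% higher. The median difference in the controls was −0.46 for the 19 genes against −0.19 over all genes. ACTL8, an actin-like protein of testis, was at 0.46 RPKM in C8161 with ATF3 and 0.51 RPKM in the C8161 control, against 108 RPKM in A2058 with ATF3 and 110 RPKM in the A2058 control. PASD1, an X-linked suppressor of the circadian clock, was listed at 0 in C8161 and was at 31 RPKM in A2058 with ATF3 against 31.6 RPKM in its control. ROPN1, a sperm flagellum protein, was at 0 in C8161 and at 8.45 RPKM in A2058 with ATF3 against 10.3 RPKM in its control. The other lower genes, named after their values were seen, were CT45A10 and SAGE1. CT45A10 was at 0.04 RPKM in C8161 with ATF3 and listed at 0 in its control, against 6.49 RPKM in A2058 with ATF3 and 6.39 RPKM in its control. SAGE1 was listed at 0 in C8161 and was at 5.75 RPKM in A2058 with ATF3 against 6.39 RPKM in its control. The higher one was LY6K, at 9.40 RPKM in C8161 with ATF3 and 10.1 RPKM in its control, against 0.76 RPKM in A2058 with ATF3 and 0.82 RPKM in its control. NUF2, a kinetochore protein, was at 29.3 RPKM in C8161 with ATF3 and 23.5 RPKM in the C8161 control, against 21.8 RPKM in A2058 with ATF3 and 22.0 RPKM in the A2058 control. A single gene of this list passed 0.5 with ATF3 in A2058 and none in C8161, where 0.539% and 0.274% of all genes passed. The gene, LDHC, encodes a lactate dehydrogenase of sperm, was picked out by its value and was at 2.26 RPKM in A2058 with ATF3 against 3.69 RPKM in its control.

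Of the broadly expressed MAGE relatives, 7 of 10 were at 1 RPKM or more in a column. MAGED1, MAGED2, MAGEF1 and NSMCE3 reached that level in both lines, TRO in C8161 alone, and NDN and MAGEH1 in A2058 alone. On the log2(RPKM + 1) scale 2 were lower in C8161 by at least 4-fold in both pairs, where 6.74% of all genes were. MAGED2 was at 29.9 RPKM in C8161 with ATF3 and 34.3 RPKM in its control, against 21.3 RPKM in A2058 with ATF3 and 19.2 RPKM in its control. NSMCE3, a subunit of the SMC5/6 complex, was at 16.3 RPKM in C8161 with ATF3 and 17.0 RPKM in its control, against 8.86 RPKM in A2058 with ATF3 and 7.87 RPKM in its control. NDN, which encodes necdin, was listed at 0 in C8161 and was at 22.4 RPKM in A2058 with ATF3 against 21.9 RPKM in its control, and MAGEH1 was at 0.01 RPKM in C8161 with ATF3 and 0.02 RPKM in its control against 4.54 RPKM in A2058 with ATF3 and 5.15 RPKM in its control. LRRC14, a PRAME relative and 1 of 4 listed, was at 9.29 RPKM in C8161 with ATF3 and 10.7 RPKM in its control, against 11.5 RPKM in A2058 with ATF3 and 12.0 RPKM in its control.

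None of the partners, DNA methylation genes, germline gene repressors or promoter-binding factors differed between the lines by 4-fold in both pairs on the log2(RPKM + 1) scale. The counts were 0 of 13, 0 of 15, 0 of 19 and 0 of 11 genes at 1 RPKM or more. Over all genes 6.74% were lower in C8161 and 3.07% higher. None passed 0.5 with ATF3 in either line, where 0.274% of all genes passed in C8161 and 0.539% in A2058. At such shares, a count of 0 with ATF3 does not set lists of this size apart from other genes. Among partners of the MAGE and PRAME proteins, TRIM28 was at 177 RPKM in C8161 with ATF3 and 207 RPKM in its control, against 283 RPKM in A2058 with ATF3 and 287 RPKM in its control. ELOB, which joins PRAME to its ligase, was at 83.8 RPKM in C8161 with ATF3 and 103 RPKM in its control, against 165 RPKM in A2058 with ATF3 and 164 RPKM in its control. The polycomb methyltransferase EZH2 was at 10.2 RPKM in C8161 with ATF3 and 9.81 RPKM in its control, against 27.7 RPKM in A2058 with ATF3 and 28.1 RPKM in its control, and the retinoic acid receptor gene RARA was at 11.4 RPKM in C8161 with ATF3 and 12.4 RPKM in its control, against 28.1 RPKM in A2058 with ATF3 and 28.3 RPKM in its control.

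The DNA methylation list had a median difference of −0.25 between the controls. TET1, named after its values were seen, was at 0.10 RPKM in C8161 with ATF3 and 0.09 RPKM in its control. In A2058 it was at 1.78 RPKM with ATF3 and 2.01 RPKM in the control. From that level a gene cannot be 4-fold lower in C8161 on the log2(RPKM + 1) scale. The methyltransferase gene DNMT3A was at 4.67 RPKM in C8161 with ATF3 and 4.33 RPKM in its control, against 8.83 RPKM in A2058 with ATF3 and 8.68 RPKM in its control. The methyl-CpG binding protein gene MBD2 was at 10.7 RPKM in C8161 with ATF3 and 8.98 RPKM in its control, against 5.02 RPKM in A2058 with ATF3 and 4.15 RPKM in its control. MBD3 was at 43.8 RPKM in C8161 with ATF3 and 52.3 RPKM in its control, against 38.3 RPKM in A2058 with ATF3 and 38.2 RPKM in its control. ZBTB38, which also binds methylated DNA, was at 35.1 RPKM in both C8161 columns, against 18.2 and 19.7 RPKM in A2058 with ATF3 and its control. Of the repressors, ATF7IP, a partner of SETDB1, was at 10.2 RPKM in C8161 with ATF3 and 8.80 RPKM in its control, against 3.07 RPKM in A2058 with ATF3 and 3.87 RPKM in its control. EHMT2, which methylates histone H3, was at 18.4 RPKM in C8161 with ATF3 and 19.9 RPKM in its control, against 39.0 RPKM in A2058 with ATF3 and 41.6 RPKM in its control. The polycomb genes L3MBTL2 and RING1 were at 9.59 and 19.0 RPKM in C8161 with ATF3 and at 11.2 and 20.1 RPKM in the C8161 control, against 19.0 and 38.6 RPKM in A2058 with ATF3 and 19.4 and 38.4 RPKM in the A2058 control. Of the factors known to bind such promoters, ETS1 was at 116 RPKM in C8161 with ATF3 and 106 RPKM in its control, against 35.6 RPKM in A2058 with ATF3 and 36.7 RPKM in its control. ETS2 was at 16.6 RPKM in C8161 with ATF3 and 19.2 RPKM in its control, against 7.33 RPKM in A2058 with ATF3 and 6.23 RPKM in its control, and IRF1 was at 10.1 RPKM in C8161 with ATF3 and 9.98 RPKM in its control, against 3.77 RPKM in A2058 with ATF3 and 3.29 RPKM in its control. MEF2C was at 1.09 RPKM in C8161 with ATF3 and 1.21 RPKM in its control, against 6.24 RPKM in A2058 with ATF3 and 6.19 RPKM in its control. The part of these genes in the difference between the lines was not tested.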

How the data were processed

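RNA was sequenced from 2 melanoma cell lines with introduced ATF3 or a neomycin control. Libraries were of the DNA nanoball type, per the labels' protocols. The authors deposited 1 table of RPKM with 2 decimals, per the file headers, for 18478 Entrez genes. Per the submitters' processing notes, Bowtie2 and RSEM were used with hg38; no version is listed. Not given in the sources used here are the annotation, the treatment of reads that match several copies and the way C8161 libraries were combined. Those columns are printed as the authors' values, without SD or n.

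Symbols and types came from RefSeq genes of GRCh38.p14 (18156 identifiers matched), and transcript lengths, GC content and shared sequence from GENCODE 29 (17850 matched). Ratios are differences of log2(RPKM + 1), which understate those of low genes, over genes at 1 RPKM or more in a column compared; family sums use every member listed. Values were computed with Python 3.11.15, pandas 2.3.3 and NumPy 2.4.6, and the steps were tested on simulated data. The A2058 depth came from whole-read steps in low values, and is approximate. limma, planned for C8161 in case of a value per library, could not be run. The members and lists were chosen with earlier results of these data known. Named were every member at 1 RPKM or more, the highest of each family below that, and of each list the genes with the largest differences between the control lines or with ATF3 at a mean of 2 RPKM or more. Genes of the Y chromosome were left out of the lists. Alternatives tried were another pseudocount, minimum level, scaling, GC and length correction, ratio and subset of members.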

Additional observations from a re-analysis of the deposited data

How the results depend on the processing

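No value past 0.5 with ATF3, or past 4-fold between the lines, changed sign under an alternative run for it. Values counted as kept moved by at most 0.1 on the log2 scale or 10%, or, for counts, by at most 1.5 times. With a pseudocount of 0.1 RPKM, 4 members were higher and 5 lower with ATF3 in A2058, against 1 and 3. The higher count was 2 with no minimum level, 0 after quantile normalization, 0 after removal of GC and length trends, 5 at a ratio of 0.3 and 0 over family sums. The lower count was 5 at a ratio of 0.3, and 0 among members with under 50% shared sequence and over family sums. At a ratio of 0.3, 1 member was higher in C8161, against 0.

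C8161 family ratios near 0 RPKM moved with a pseudocount of 0.1 RPKM to −0.24 (MAGEC), −1 (GAGE), −1 (PAGE), 0.36 (XAGE), 1.07 (SSX) and −0.30 (PRAME). After quantile normalization they were −0.33 (GAGE), −0.30 (PAGE) and 0.27 (SSX). GAGE without its copies of at least 50% shared sequence gave −0.042, SSX with SSX2IP counted, an alternative chosen after seeing the data, gave 0.32, and CTAG after trend removal gave 0.15. In A2058, genes with under 50% shared sequence gave 0.37 (XAGE), 0.31 (SSX) and 0.22 (CTAG, −0.04 over both genes), all from genes at 1.35 RPKM or less. At 1 RPKM or more the CTAG ratio was −0.18, and BAGE with 0.1 RPKM gave 0.64.

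The control line difference, C8161 minus A2058, was with 0.1 RPKM −10.09 (MAGEA), −4.75 (MAGEB), −7.33 (MAGEC), −13.19 (GAGE), −8.30 (PAGE), −10.06 (XAGE), −8.55 (SSX), −9.29 (CSAG), −4.09 (CTAG), −3.55 (BAGE) and −9.41 (PRAME). With under 50% shared sequence it was −6.87 (MAGEA), −6.64 (GAGE), −1 (XAGE), −1.04 (SSX), −0.61 (CTAG) and −7.49 over all members. The XAGE, SSX and CTAG values there rest on genes under 1 RPKM in the A2058 control. SSX with SSX2IP gave −2.86, CTAG at 1 RPKM or more −1.48, and after quantile normalization CTAG gave −1.40 and BAGE −0.83. That normalization moved the median of all genes from −0.19 to 0.08.

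No paired analysis was possible because the C8161 libraries are given as combined columns and A2058 has 1 library per arm. Leaving out a replicate was not run for the same reason, and the trend removal was not computed for BAGE5, which has no transcript here. Depth limits values under 1 RPKM.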
